A study of Homo sapiens with 2 samples.

Results

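Zinc finger genes are described here across 2 conditions of HepG2, a human hepatoma cell line. They were all genes whose single symbol in the array's probe annotation began with ZNF, ZFP, ZBTB, ZSCAN or ZKSCAN, which gave 51 of the 2792 genes in the table and 553 of its 42575 probe sets with 1 symbol. By prefix, 41 were listed as ZNF, 6 as ZBTB, 2 as ZFP, 1 as ZSCAN and 1 as ZKSCAN, and the rule uses the symbol and no measured value. The current symbol of 5 of them differs from the listed one, and the current symbol is used below. All genes, and measured genes, mean the 2792 in the table. How its probe sets were chosen is not known here, so a gene outside it cannot be called undetected.

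The cells were grown on collagen and transfected with an LNA (locked nucleic acid, a chemically stiffened antisense oligonucleotide) directed at the ultraconserved noncoding RNA TUC338, or with a control LNA. Both groups are therefore the same line and both carry an LNA. Each condition had 1 exon array, where a gene is read by several probe sets that each sit in about 1 exon, so no difference has a replicate check and no test between conditions was possible. No probe set carried the name of TUC338, so its own level was not checked. HepG2 is hepatocyte-derived, and 6 of 16 hepatocyte markers were in the table, with mean intensities of 1480 to 8284 after knockdown and 1007 to 8036 in the control. Of the 7 fibroblast markers only COL1A1 and PDGFRB were in the table, at -0.90 ± 0.33 and 0.22 ± 0.38 (log2, relative to the median gene, as explained below), and none of the leukocyte, endothelial or biliary markers was. Their part in the results was not tested. The arrays measured RNA of whole cultures, so less of a transcript per cell and fewer cells that carry it cannot be told apart.

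Most human zinc finger transcription factors bind DNA through tandem C2H2 fingers, short loops in which paired cysteines and histidines hold a zinc ion. What the protein does there depends on the domain in front of the fingers. A KRAB domain brings in TRIM28 and with it histone methylation and silencing, a BTB domain forms dimers and binds corepressors such as NCOR1, and a SCAN domain pairs family members. Some proteins with the same kind of name act instead on RNA, such as ZFP36L1, which binds AU-rich elements and speeds mRNA decay. In liver, ZBTB20 is known for shutting off the fetal gene AFP after birth.

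Values were compared as the knockdown minus the control log2 intensity, averaged over the probe sets of a gene. The knockdown array was brighter as a whole: the median gene was 0.28 higher (log2), or 1.22-fold. Differences are therefore given relative to the median gene unless they are called deposited values. Each ± is the SD over the probe sets of that gene on the same 2 arrays. It shows how well its exons agreed and is no replicate error. Over all genes the pooled SD between probe sets of a gene was 0.28, and over the zinc finger genes it was 0.29. Levels are intensities averaged on the log scale, and they depend on the probes, so no gene is called more abundant than another, and levels serve only as a filter.

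The zinc finger genes as a group lay where the other genes lay. Their median difference was -0.02, with 25 above and 26 below the median gene. At a threshold of 1.5-fold, ZBTB41 and ZNF410 were higher, which is 2 of 51 genes, or 3.92%, against 2.26% of all genes. No zinc finger gene was 1.5-fold lower, against 3.9% of all genes. None reached 2-fold in either direction, where 0.287% of all genes were higher and 0.358% lower. In deposited values 6 zinc finger genes were at least 1.5-fold higher, or 11.8%, against 13.0% of all genes, and none was 1.5-fold lower, against 0.967%. These shares lay near those over all genes.

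**Figure D1:**
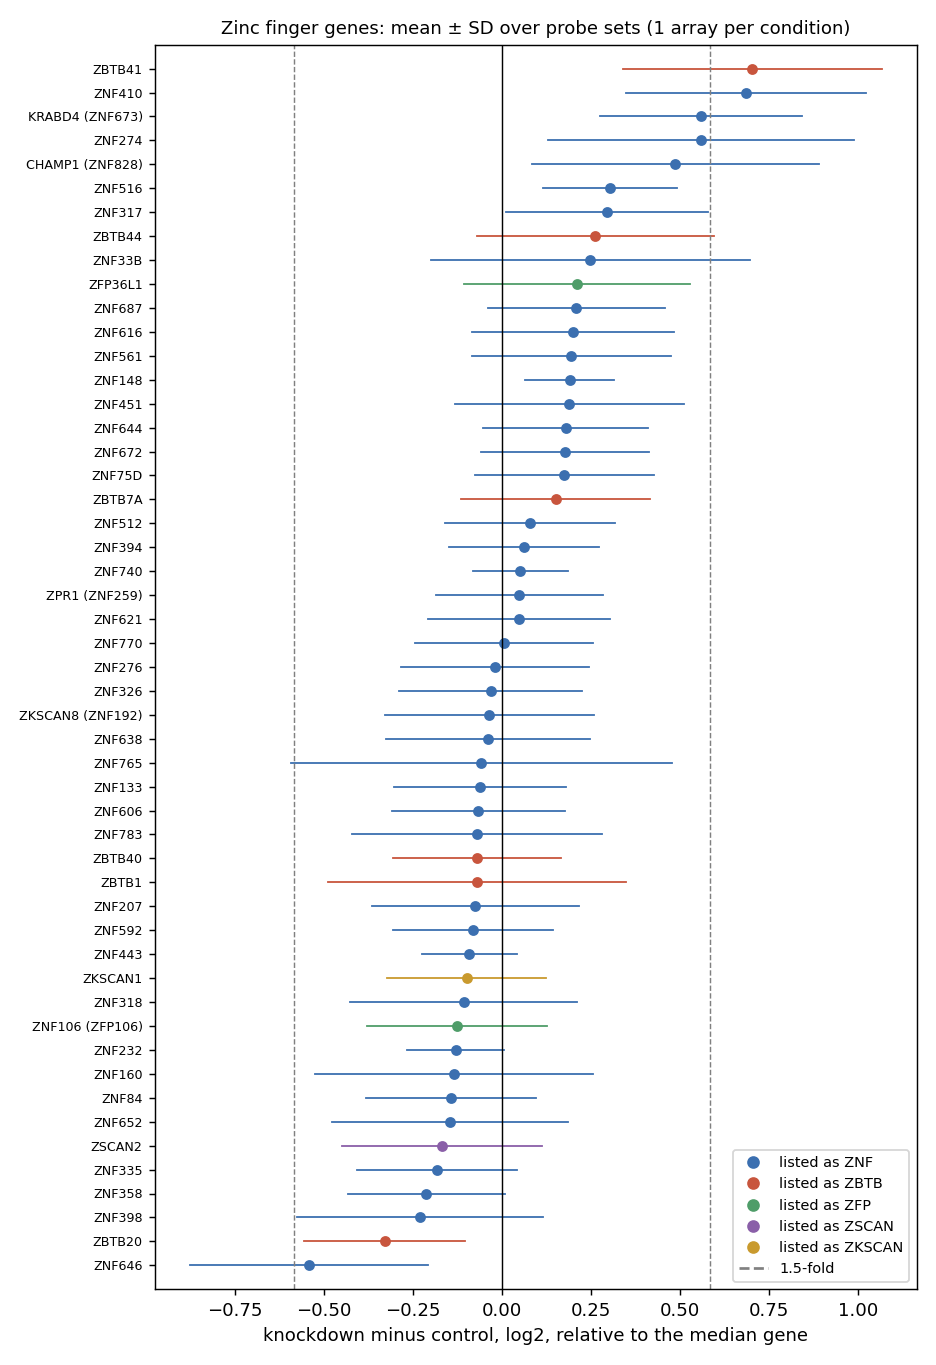
Mean difference between the knockdown and the control array for each of the 51 zinc finger genes (x axis, log2, relative to the median gene), with the SD over the gene's probe sets as bars and colours for the listed prefix. ZBTB41 and ZNF410 lie beyond the dashed 1.5-fold line at 0.70 and 0.69, and ZNF646 is lowest at -0.54.

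With means over probe sets, the spread of the zinc finger genes was narrower on the lower side. The zinc finger genes ran from -0.54 to 0.70, with an SD of 0.25 from gene to gene, while all genes ran from -1.46 to 1.18 with an SD of 0.31. The upper parts were alike: the 90th percentile was 0.30 for the zinc finger genes and 0.34 for all genes. The 10th percentile was -0.17 for the zinc finger genes and -0.41 for all genes, so fewer of them lay far below the median gene. A filter at the median intensity over genes, which reflects probes as well as transcripts, put 43 of the 51 on its dim side. Among all 1396 genes on that side the 10th percentile was -0.44, and among the 43 zinc finger genes it was -0.18. The difference in spread was not tested. It was described for means over probe sets only. By the brightest probe set the lowest zinc finger genes were ZNF398 at -0.62, ZNF783 at -0.60, ZSCAN2 at -0.55 and ZBTB20 at -0.47. Next came ZNF84 at -0.44, ZNF638 at -0.43 and ZNF646 at -0.38. All of these but ZNF646 lay lower than by means over probe sets. Percentiles were not computed for that setting, so whether the lower side stays narrow there is not known. In deposited values 49 of 51 zinc finger genes were brighter on the knockdown array, or 96.1%, against 83.0% of all genes. The exceptions were ZNF646 and ZBTB20. Of the 50 zinc finger genes with at least 4 probe sets, ZBTB41, KRABD4, CHAMP1, ZNF516 and ZNF148 lay above the median gene at every probe set, or 10%, against 7.33% of all such genes. ZNF646, ZNF358 and ZNF232 lay below it at every probe set, or 6.0%, against 9.01%.

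**Figure D2:**
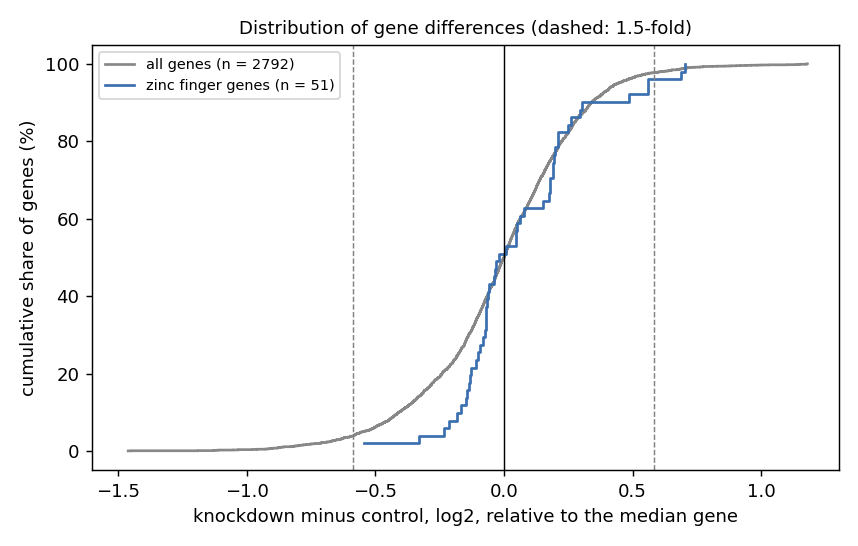
Cumulative share of genes (y axis, percent) against the difference relative to the median gene (x axis, log2) for the 51 zinc finger genes and all 2792 genes. The curves meet near 0 and above it, while below it the zinc finger genes start later, with a 10th percentile of -0.17 against -0.41. Differences are means over probe sets.

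**Figure D3:**
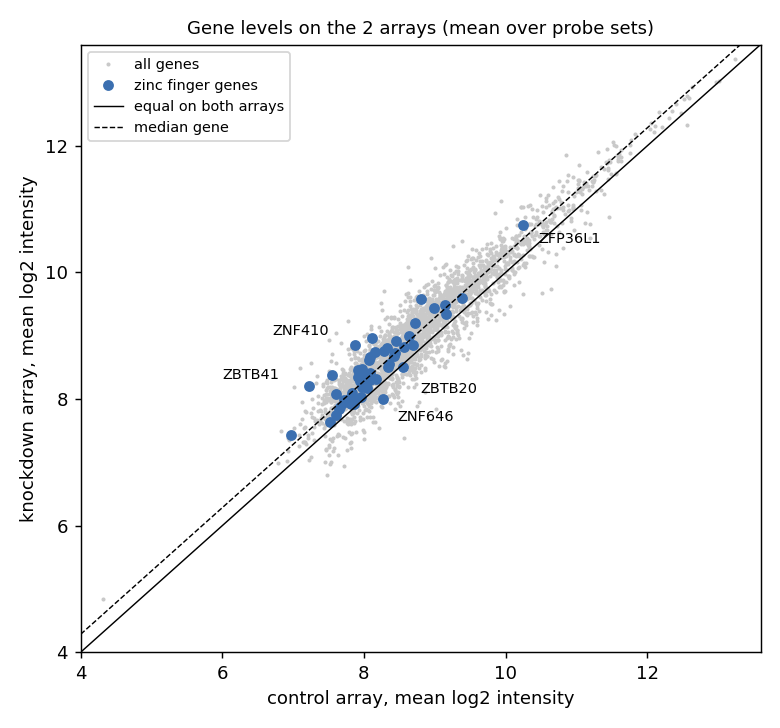
Mean log2 intensity of each gene on the control array (x axis) and on the knockdown array (y axis), with all genes in grey and the zinc finger genes in blue. Nearly all zinc finger genes lie above the line of equal intensity, as the median gene does, and only ZNF646 and ZBTB20 lie below it.

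ZBTB41, a BTB zinc finger gene whose targets are not well described, stood highest. Its mean intensity was 295 after knockdown and 149 in the control, which gave 0.70 ± 0.36 over 12 probe sets, or 1.63-fold relative to the median gene. All 12 probe sets lay above the median gene, from 0.19 to 1.29. Leaving out any 1 probe set kept the mean between 0.65 and 0.75. At its brightest probe set the intensities were 597 and 200, and the difference was 1.38 on the scale of brightest probe sets.

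ZNF410 came next. It encodes a zinc finger activator known for an unusually narrow set of targets, chiefly CHD4, the helicase of the NuRD repressor complex. On the knockdown array its mean intensity was 460, against 235 for the control, a difference of 0.69 ± 0.34 over 15 probe sets, or 1.61-fold. Of its probe sets, 14 lay above the median gene, up to 1.14, and the remaining 1 lay at -0.13. That exception was a dim probe set, with an intensity of 132 in the knockdown and 119 in the control. Another dim one, with 133 and 75, lay at 0.54. Whether low signal played a part in the exception was not tested. CHD4 itself had a mean intensity of 1158 in the knockdown and 1115 in the control, which is -0.23 ± 0.20 relative to the median gene, with 9 of 43 probe sets above it. The activator thus lay above the median gene and its known target below it on these arrays. In deposited values CHD4 was 0.05 higher.

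The next genes were just short of 1.5-fold, which is 0.58 on this scale. KRABD4, listed as ZNF673, encodes a KRAB domain protein without zinc fingers. It had intensities of 335 and 187 on the knockdown and control arrays and a difference of 0.56 ± 0.28, with all 7 probe sets above the median gene. ZNF274, a KRAB protein that binds the ends of other zinc finger genes and recruits the histone methyltransferase SETDB1 there, had intensities of 497 and 277 and a difference of 0.56 ± 0.43, with 8 of 9 probe sets above the median gene. These exons disagreed more than usual. One probe set of ZNF274 read 331 after knockdown and 332 in the control, and another read 521 and 195, a range from -0.29 to 1.13. SETDB1 lay at 0.01 ± 0.26 over 20 probe sets, and TRIM28, the scaffold that KRAB domains bind, at 0.0038 ± 0.12 over 15, so both means were level with the median gene. By the brightest probe set SETDB1 lay at -0.27.

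CHAMP1, listed as ZNF828, serves chromosome alignment in mitosis. Its intensities were 767 and 450 and its difference was 0.49 ± 0.40 over 6 probe sets, all above the median gene. A single probe set carried much of this mean. It read 302 after knockdown against 103 in the control, a difference of 1.27, while the others lay between 0.14 and 0.47. Without it the mean was 0.33. ZNF516, an activator of thermogenic genes in brown fat, showed the more even pattern: 408 and 272, a difference of 0.30 ± 0.19, and all 12 probe sets above the median gene.

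**Figure D4:**
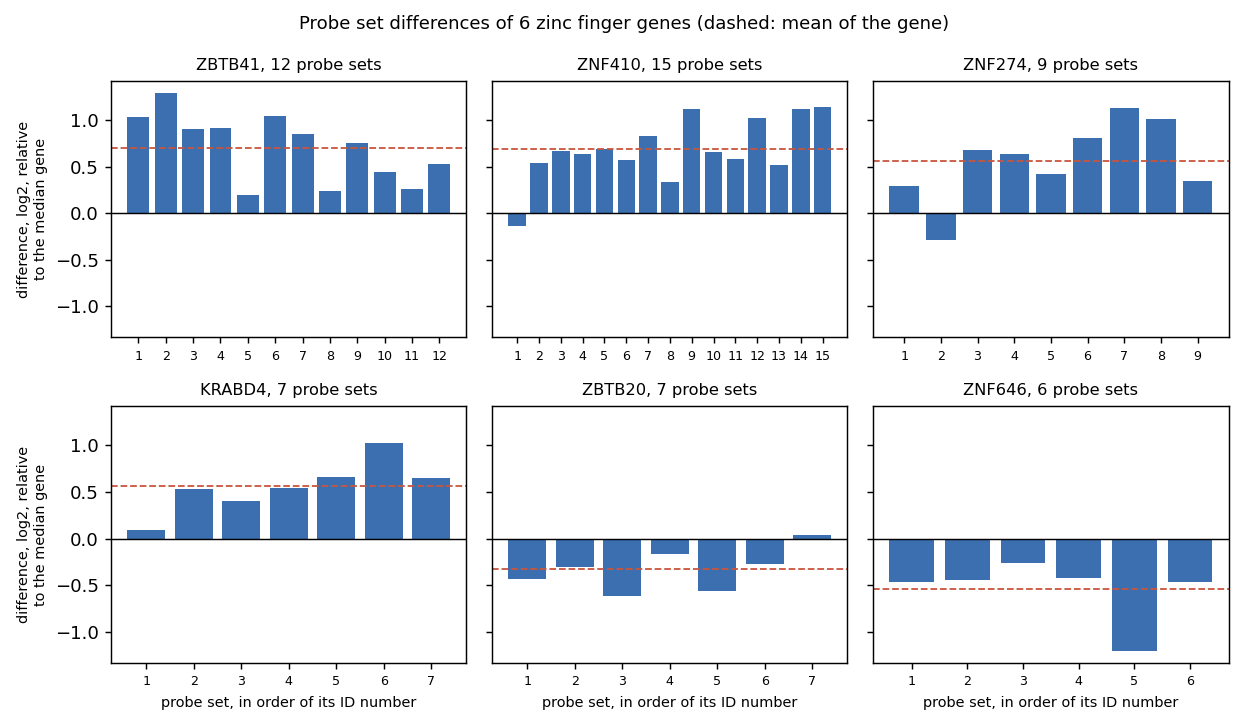
Difference at each probe set (y axis, log2, relative to the median gene) for the 4 highest and the 2 lowest zinc finger genes, in order of probe set number (x axis), with the gene mean dashed. All 12 bars of ZBTB41 point up and all 6 of ZNF646 point down, while ZNF410, ZNF274 and ZBTB20 each have 1 bar on the other side.

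ZNF646 stood lowest. Its mean intensity was 257 after knockdown and 307 in the control, which gave -0.54 ± 0.33 over 6 probe sets, none of which lay above the median gene. One probe set, with 218 against 413, lay at -1.21, and the other 5 lay between -0.47 and -0.26. Without that probe set the mean was -0.41. ZBTB20, the liver repressor of AFP, was the next lowest, with 362 in the knockdown and 374 in the control. Its difference was -0.33 ± 0.23, and 6 of 7 probe sets lay below the median gene. In deposited values its mean was -0.05, which is smaller than the SD over its probe sets. AFP was not among the genes in the table, so its level is not known here, and albumin, ALB, lay at -0.08 ± 0.17.

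The promoters of zinc finger genes from both ends of this order are shown because the sequence before a gene's start is a feature that the choice of genes did not use. RefSeq promoter windows (GRCh38.p14) were found for 47 of the 51 genes, not for ZBTB41. The 250 bases before the start are printed for ZNF410 and ZNF274, which were high, and for ZNF646, which was lowest. Capitals mark CCGGAA, 1 form of the motif of ETS family factors, or TTCCGG, the same form on the other strand. Shorter or other forms of the ETS motif were not marked or counted. ZNF410 is at chr14:73886609-73886858, ZNF274 at chr19:58182811-58183060 and ZNF646 at chr16:31074172-31074421, all on the + strand and 5′ to 3′.
ZNF410: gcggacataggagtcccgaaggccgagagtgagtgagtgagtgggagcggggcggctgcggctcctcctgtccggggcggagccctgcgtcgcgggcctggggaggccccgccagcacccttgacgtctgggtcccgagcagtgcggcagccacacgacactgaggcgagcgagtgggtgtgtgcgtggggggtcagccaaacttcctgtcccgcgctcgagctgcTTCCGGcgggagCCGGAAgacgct
ZNF274: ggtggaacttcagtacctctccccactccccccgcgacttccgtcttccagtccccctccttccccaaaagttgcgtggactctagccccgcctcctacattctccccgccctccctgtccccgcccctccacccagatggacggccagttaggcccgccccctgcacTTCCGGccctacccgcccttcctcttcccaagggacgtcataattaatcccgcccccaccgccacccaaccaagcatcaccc
ZNF646: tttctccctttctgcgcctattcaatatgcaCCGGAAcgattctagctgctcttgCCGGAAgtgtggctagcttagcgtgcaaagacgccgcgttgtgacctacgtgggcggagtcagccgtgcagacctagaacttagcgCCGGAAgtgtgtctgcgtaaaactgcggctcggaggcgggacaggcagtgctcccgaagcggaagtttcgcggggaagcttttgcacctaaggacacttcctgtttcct
The printed stretch held 2 marked ETS motifs for ZNF410, 1 for ZNF274 and 3 for ZNF646, so this form was present in genes that were high and in the gene that was lowest. The stretch held 26, 14 and 21 CpG dinucleotides in the same order.

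Over all windows of 300 bases, which add the 50 bases after the start, the zinc finger promoters resembled those of the other measured genes. The ETS form CCGGAA, on either strand, was in 30.4% of the 69 zinc finger windows and in 28.1% of the 3546 windows of all measured genes. It was in 17.3% of all 35116 windows in the RefSeq table. GGGCGG, the GC box bound by SP1 and KLF factors, or its complement CCGCCC, was in 65.2%, 66.3% and 45.0%. CCAAT, or ATTGG on the other strand, was in 30.4%, 34.2% and 34.6%, and TATAAA or TTTATA in 7.25%, 5.47% and 11.5%. CACGTG, the palindromic E-box, was in 13.0%, 9.96% and 7.26%. The median window had 25 CpG dinucleotides for the zinc finger genes and 26 for all measured genes. Zinc finger genes with this ETS form had a median difference of -0.04 (20 genes) and those without it a median of 0.0062 (27 genes). With a GC box the median was -0.04 (37 genes) and without it 0.11 (10 genes). With a CCAAT box it was 0.08 (18 genes) and without it -0.06 (29 genes). With a TATA box it was -0.18 (3 genes) and without it -0.03 (44 genes), and with an E-box it was -0.07 (8 genes) and without it 0.0062 (39 genes). A match is a run of letters and not a measured site.

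Of the BTB genes, 6 were in the table and their median difference was 0.04, with 3 above and 3 below the median gene. Beside ZBTB41 and ZBTB20, ZBTB44 had intensities of 394 and 269 on the knockdown and control arrays and a difference of 0.26 ± 0.33, with 12 of 16 probe sets above the median gene. ZBTB7A, a repressor of fetal globin genes, had 327 and 242 and a difference of 0.15 ± 0.27, with 8 of 10 above. ZBTB40 lay at -0.07 ± 0.24 over 29 probe sets. ZBTB1, known from lymphocyte development, lay at -0.07 ± 0.42 over 9, and its exons spread from -0.65 to 0.61. The genes listed as ZBTB therefore took both the top and the second lowest place among the zinc finger genes. Of the 6, only ZBTB41 and ZBTB20 had means larger than the SD over their probe sets.

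Members of chromatin complexes came from a list of 14 genes, of which 4 were in the table. Their median difference was 0.19, with 3 higher than the median gene and 1 lower. The list leaves out genes with silencing roles, such as ZNF274 at 0.56 and ZNF638 at -0.04. It therefore does not stand for all zinc finger genes that act on chromatin. ZNF516 is given above. ZNF687 had intensities of 354 and 252 and a difference of 0.21 ± 0.25, with 7 of 8 probe sets above the median gene. ZNF592, which joins ZNF687 in a complex with ZMYND8, lay at -0.08 ± 0.22, with 5 of 14 above. The partners of this complex thus had means of opposite sign that were no larger than the SD over their probe sets. ZNF644, a partner of the histone methyltransferase EHMT2 (G9a), had intensities of 697 and 506 and a difference of 0.18 ± 0.23, with 8 of 10 above. EHMT2 itself read 409 after knockdown against 448 in the control, a difference of -0.42 ± 0.20, with 1 of 18 probe sets above the median gene. In deposited values EHMT2 was lower by 0.13, so it was among the minority of genes that were dimmer on the knockdown array.

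A list of 7 genes with RNA or mitotic roles had 4 genes in the table, all slightly below the median gene, with a median of -0.06. The list leaves out CHAMP1, given above, and ZFP36L1 and ZNF106, given below, so it does not stand for all such genes. ZNF207, a kinetochore protein that binds BUB3, had intensities of 774 and 669 and a difference of -0.07 ± 0.29, with 8 of 18 probe sets above the median gene. ZNF638, which recruits silencing to unintegrated retroviral DNA, lay at -0.04 ± 0.29 over 35 probe sets, the most of any zinc finger gene here. ZNF326, which links transcript elongation to splicing, lay at -0.03 ± 0.26, and ZNF318 at -0.11 ± 0.32. In deposited values all 4 were above 0, and each mean relative to the median gene was smaller than the SD over its probe sets.

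ZFP36L1 was the one member of its mRNA decay family in the table. Its intensities were 1719 after knockdown and 1220 in the control, and its difference was 0.21 ± 0.32, with 6 of 9 probe sets above the median gene. Its exons ran from -0.17 to 0.83. The highest value came from a probe set with 953 against 439, while the 4 probe sets with over 2000 on the control array lay between -0.17 and 0.16. ZNF106, listed as ZFP106, an RNA-binding protein needed by motor neurons, lay at -0.13 ± 0.25 over 32 probe sets, with 8 above the median gene. ZNF148, which binds GC-rich promoters, was the only promoter-binding activator of 7 listed that was in the table. It had intensities of 432 and 311 and the most uniform difference of the zinc finger genes, 0.19 ± 0.12, with all 7 probe sets above the median gene.

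Of 11 listed retroelement and imprint repressors, ZNF274 and ZNF765 were in the table. ZNF765 lay at -0.06 ± 0.54 over 4 probe sets, the widest SD of the zinc finger genes. It had 2 probe sets that were brighter in the knockdown, 570 against 386 and 202 against 117, and 2 that were dimmer, 290 against 366 and 219 against 237, so a mean near the median gene hides exons that differed. KRAB zinc finger genes have close paralogs, and how far their probe sets are specific was not tested.

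The remaining genes can be placed in 3 bands. At 0.1 or more above the median gene lay 19 zinc finger genes, or 37.3%, against 35.6% of all genes. Those not yet named were ZNF317 at 0.30 ± 0.28, ZNF33B at 0.25 ± 0.45, ZNF616 at 0.20 ± 0.28, ZNF561 at 0.20 ± 0.28, the SUMO ligase ZNF451 at 0.19 ± 0.32, ZNF672 at 0.18 ± 0.24 and ZNF75D at 0.18 ± 0.25. ZNF451 had 19 probe sets that ran from -0.53 to 0.59, and 12 of them lay above the median gene. ZNF33B, which has a close paralog in ZNF33A, had 4 of 7 above. By the brightest probe set ZNF33B and ZNF616 both turned, to -0.25.

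Within 0.1 of the median gene lay 20 of the 51, or 39.2%, against 29.5% of all genes. Those not yet named were ZNF512 (0.08), ZNF394 (0.06), ZNF740 (0.05), ZPR1, listed as ZNF259 (0.05), ZNF621 (0.05), ZNF770 (0.0062), ZNF276 (-0.02), ZKSCAN8, listed as ZNF192 (-0.04), ZNF133 (-0.06), ZNF606 (-0.07), ZNF783 (-0.07) and ZNF443 (-0.09). ZKSCAN1 was the last of this band, at -0.10 before rounding just inside it, with intensities of 651 and 572 and 3 of 12 probe sets above the median gene. The band holds for means over probe sets. By the brightest probe set ZNF783 lay at -0.60, ZNF638 at -0.43, ZNF207 at -0.36 and ZNF770 at -0.30. On the other side, ZNF326 lay at 0.41, ZNF765 at 0.36 and ZKSCAN1 at 0.29.

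At 0.1 or more below the median gene lay 12, or 23.5%, against 34.9% of all genes. Those not yet named were ZNF398 at -0.23 ± 0.35, ZNF358 at -0.21 ± 0.22, ZNF335, which is mutated in a form of microcephaly, at -0.18 ± 0.23, ZSCAN2 at -0.17 ± 0.28, ZNF652 at -0.15 ± 0.33, ZNF84 at -0.14 ± 0.24, ZNF160 at -0.13 ± 0.39 and ZNF232 at -0.13 ± 0.14. ZNF358 had all 5 of its probe sets below the median gene and ZNF232 all 4. Apart from ZNF646 and ZBTB20, every gene of this band lay above 0 in deposited values. By the brightest probe set ZNF335 turned to 0.27, ZNF160 to 0.24 and ZNF232 to 0.08.

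The partners of zinc finger repressors were described as a list of their own, of which 16 of 40 genes were in the table. Their median difference was 0.0084, with 9 above and 7 below the median gene, and none was 1.5-fold higher or lower. At the upper end, the NuRD subunit MTA2 lay at 0.33 ± 0.16, with intensities of 1485 and 974 and 16 of 17 probe sets above the median gene. SMARCAD1, a chromatin remodeller that binds TRIM28, lay at 0.28 ± 0.33, but at -0.19 by its brightest probe set. At the lower end, the DNA methyltransferase DNMT3A read 369 after knockdown against 410 in the control, a difference of -0.44 ± 0.26, with none of 14 probe sets above the median gene. EHMT2 is given above, TRIM24 lay at -0.27 ± 0.24, and the heterochromatin protein CBX3 at -0.23 ± 0.38. The corepressors NCOR1 (0.05 ± 0.26), SIN3A (-0.07 ± 0.29) and SIN3B (-0.09 ± 0.21) lay near the median gene. The NuRD genes did not share a direction, since MTA2 was at the top of the list, MTA3 at 0.07 ± 0.21 and CHD4 below the median gene.

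**Figure D5:**
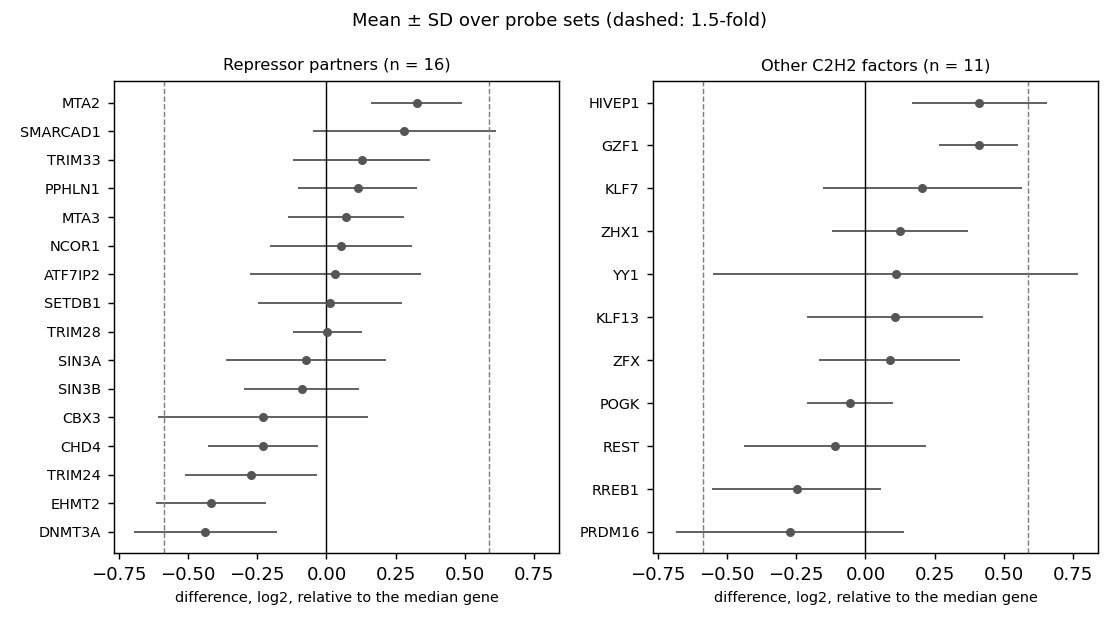
Mean difference relative to the median gene (x axis, log2) with the SD over probe sets for the 16 measured partners of zinc finger repressors (left) and 11 measured genes listed as C2H2 factors with other names (right). No gene in either panel lies beyond the dashed 1.5-fold lines, and DNMT3A at -0.44 is the lowest.

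Of 117 genes listed as other C2H2 factors, whose symbols fall outside the prefixes, 11 were in the table. Whether each of them, such as POGK, has C2H2 fingers was not checked. Their median difference was 0.11, with 7 above the median gene, and none was 1.5-fold higher or lower. HIVEP1, which binds enhancers of the NF-kappaB type, had intensities of 330 and 204 and lay at 0.41 ± 0.24, with all 22 probe sets above the median gene. GZF1 had 364 and 225 and lay at 0.41 ± 0.14, with all 7 above. PRDM16 lay at -0.27 ± 0.41 and RREB1 at -0.25 ± 0.30. By the brightest probe set PRDM16 lay at -0.86, which is past 1.5-fold, and RREB1 at -0.02. REST, the repressor of neuronal genes, lay at -0.11 ± 0.33 and YY1 at 0.11 ± 0.66, with exons that disagreed more than those of any zinc finger gene. Without the dimmest 25% of probe sets YY1 turned to -0.12. These factors spread over both sides of the median gene as the named zinc finger genes did.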

How the data were processed

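Gene expression was measured in HepG2 on 2 arrays, 1 per group by the transfection label. The authors deposited 1 table of values for 45200 probe sets. Which normalization, software and genome build they used is not stated by any source used here. The deposited values were read as natural log intensities, because the exponentials of 1154 of 41367 knockdown values under 2000 fell in 1 residue bin against a mean of 82.7 per bin. Read as log2 the fullest bin held 117 against a mean of 90.4. Dividing them by ln(2) put them on a log2 scale. The annotation gave 1 symbol for 42575 probe sets, several for 1055 and none for 1570. Outdated symbols were updated through RefSeq (GRCh38.p14). The difference of a gene was the mean over its probe sets of knockdown minus control, relative to the median of 2792 genes, with no filter on low values. Genes were counted at 1.5-fold and 2-fold. The gene step was run on simulated probe set differences with planted shifts and independent noise. That checks the computation only and says nothing about the spread between cultures.

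The text names the 10 highest and 10 lowest zinc finger genes, those of the functional lists and a set of well-known ones, and lists the others by value. The members and lists were chosen with earlier results of these data known. Protein sequences were not used here, so the zinc finger genes were not split by KRAB domain. Computations used Python 3.11.15, numpy 2.4.6, pandas 2.3.3 and statsmodels 0.14.6.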

Additional observations from a re-analysis of the deposited data

How the results depend on the processing

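ZBTB41 and ZNF410 stayed at least 1.5-fold higher with medians over probe sets, quantile normalization, removal of a trend with intensity, a minimum of 4 probe sets and, in a check chosen after seeing the data, without the 5 genes whose listed symbol is outdated. Neither passed a floor at the median intensity over genes, which left 8 zinc finger genes and 0 calls. Read as log2, the deposited values also gave 0 calls. Over the alternatives centred on the median gene, with the stated scale, ZBTB41 ranged from 0.67 to 1.38, ZNF410 from 0.66 to 0.75, ZNF274 from 0.54 to 1.10, KRABD4 from 0.53 to 0.67 and ZNF646 from -0.70 to -0.38.

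With the brightest probe set in place of the mean, 4 genes were 1.5-fold higher, 2 of them (ZBTB41 and ZNF274) 2-fold, and 2 (ZNF783 and ZNF398) were 1.5-fold lower. The medians became 0.09 for all zinc finger genes, 0.15 for those listed as ZBTB, -0.21 for the genes of RNA and mitosis and -0.19 for the repressor partners. In this setting 13 of the 51 genes changed sides of the median gene. ZNF33B, ZNF616 and ZNF770 turned lower, and ZNF276, ZNF326, ZKSCAN8, ZNF765, ZNF606, ZNF443, ZKSCAN1, ZNF232, ZNF160 and ZNF335 turned higher. Of the partners, SMARCAD1, TRIM33, ATF7IP2 and SETDB1 turned lower and SIN3B turned higher. Without the dimmest 25% of probe sets, 4 genes were 1.5-fold higher and 1, ZNF646, was 1.5-fold lower. Shares over all genes were computed only for means relative to the median gene and for deposited values. Counts in the other settings, here and in the paragraph above, stand without such a share and are not a result about these genes. In deposited values 6 zinc finger genes were 1.5-fold higher. The medians were then 0.26 for all zinc finger genes, 0.29 for those listed as ZNF and 0.32 for those listed as ZBTB. They were 0.48 for chromatin complex members, 0.23 for the genes of RNA and mitosis, 0.29 for repressor partners and 0.39 for other C2H2 factors. Each is the centred median shifted by the offset between the arrays, 0.28. With the level floor the medians were 0.13 for all zinc finger genes and for those listed as ZNF, and -0.083 for other C2H2 factors. Otherwise the cause of these shifts was not tested. No paired analysis was possible because each condition had 1 array. The planned split by KRAB domain was not run. With 1 array per condition, the spread between cultures is unknown.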

Other observations

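Zinc finger genes often lie in clusters. Among the genes in the table, 6 pairs of zinc finger genes were next to each other in gene order, with no other measured gene between them. ZNF317 at 0.30 and ZNF561 at 0.20 lay on the same side of the median gene, as did ZNF160 at -0.13 and ZNF765 at -0.06, and ZNF398 at -0.23 and ZNF783 at -0.07. The other 3 pairs lay on opposite sides: ZNF616 at 0.20 and ZNF160 at -0.13, ZNF606 at -0.07 and ZNF274 at 0.56, and ZNF326 at -0.03 and ZNF644 at 0.18.

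A further 8 probe sets were annotated to several zinc finger genes and were left out above. The 2 shared by ZNF33A and ZNF33B had a mean difference of -0.04 relative to the median gene, while the 7 probe sets given to ZNF33B alone had one of 0.25 ± 0.45. The 6 shared by ZNF443 and ZNF799 had a mean of 0.11 and ran from -0.14 to 0.35, while the 3 given to ZNF443 alone had one of -0.09 ± 0.13.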
